A study of Mus musculus with 4 samples.

Results

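The motifs named for the E proteins Tcf3, Tcf4 and Tcf12, the Id proteins Id1, Id2, Id3 and Id4, and the repressor Zeb1 were examined in the chromatin of regulatory T cells (Tregs) from venetoclax-treated and vehicle-treated mice. They were chosen by the factor symbol in the name of each motif entry. All 8 genes had an entry, and together they had 10 of the 1346 entries in the table. The entries stand for 796 factors in all. The 10 entries held 8 distinct sets of scores, because the entries of Id1 and Id2 carried identical scores, as did those of Id3 and Id4. No other entry of the table repeated the scores of any of the 10. Tcf7l1 and Tcf7l2, which have gone by the names Tcf3 and Tcf4, had entries of their own with other gene identifiers. Each entry is given here with the line number in its name, as in Tcf12 (line 109). Of the 10 entries, 6 are marked D and 4 are marked I. In the naming used by the CIS-BP motif database these letters stand for a motif measured directly or inferred from a related factor, but the motif collection used is not given in the sources used here.

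CD4+ FOXP3+ Tregs were taken from the spleen of B6.Cg-Foxp3tm2Tch/J mice, recorded as wild type, in which GFP is translated from the Foxp3 transcript and marks the cells. The mice received vehicle or 50 mg/kg venetoclax, a drug that blocks BCL-2 and thereby the survival signal it gives to lymphocytes, and both arms ran for 14 days. Each group had 2 samples, described as biological replicates and not tied to single animals. A p-value here therefore reflects how far these samples spread, mainly as pooled over all motif entries, and that spread may be technical. ATAC-seq, which reads out DNA that a transposase can reach, was summarised by the authors as a chromVAR deviation score. A positive score means that peaks holding a motif were more accessible in a sample than the average over the samples scored together predicts, after correction with background peaks, and a negative score means less. It is a deviation and not a level of accessibility. The identity of the sorted cells could not be checked against marker genes, since the scores describe motifs and not expression.

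E proteins are basic helix-loop-helix (bHLH) factors that bind the E-box as pairs with each other or with tissue-restricted bHLH partners. Id proteins have the helix-loop-helix but lack the basic region that contacts DNA, so they pair with E proteins and keep them off the E-box. Zeb1 is a zinc finger repressor that binds a subset of E-boxes, called E2-boxes, also bound by E proteins. In T cells, E proteins direct thymocyte development, Id2 and Id3 restrain E proteins and help maintain Tregs, and Zeb1 represses the interleukin-2 gene. A motif score belongs to a sequence pattern, and related factors share patterns, so none of the values below measures the amount or binding of a named factor.

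The 4 samples did not fall cleanly into the groups. Venetoclax replicate 2 correlated at 0.090 with venetoclax replicate 1 across all entries and at -0.74 with vehicle replicate 2, while vehicle replicates 1 and 2 correlated at 0.60 and venetoclax replicate 1 correlated at 0.57 with vehicle replicate 1 (Pearson's r, a description over entries that are not independent). The differences of the 10 entries are therefore also given without single samples. The depth of the samples is unknown, as the scores carry no counts. The precision in limma rests on the spread between samples, taken mainly as pooled over all entries, which are not independent. An entry's own samples gave 2 of its 21.0 degrees of freedom. The median difference over all entries, venetoclax minus vehicle, was -0.29 score units, and it was -0.028 once the median of each sample had been subtracted from its scores. With all 4 samples, this centring adds 0.26 to every difference.

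Zeb1 and the Id1 and Id2 motif scored higher in both venetoclax samples than in both vehicle samples, as did Tcf12 (line 109) and Tcf4. The 2 Tcf3 entries had negative differences, and Id3, Id4 and Tcf12 (line 110) had smaller positive ones. No difference passed an adjusted p of 0.05 in limma with Benjamini-Hochberg adjustment over all 1346 entries. The percentage of all entries that passed was 0. At an unadjusted p under 0.05, 5 of the 10 member entries were higher with venetoclax and 0 were lower. Of all entries 18.3% had such a p, with 6.39% higher and 11.9% lower. After centring 5 member entries were still higher, with 8.54% of all entries higher and 7.43% lower. Before centring, the differences of these 5 entries were nearest to 0 without venetoclax replicate 2. They were then 1.44 for Zeb1, 1.33 for the Id1 and Id2 motif, 1.06 for Tcf12 (line 109) and 1.02 for Tcf4. With an ordinary linear model, which shares no spread between entries, the count of 5 was 0. Of all entries 92 had an unadjusted p under 0.05 in that model, with 2.67% higher and 4.16% lower. The 5 entries with all samples stand for 4 distinct sets of scores, and the genes were picked with earlier results of these data known. The groups did not overlap and venetoclax was higher for 5 of the 10 entries, against 17.2% of all entries. Groups that did not overlap in either direction were found for 6 of the 10 entries and for 48.3% of all entries. A positive difference was found for 8 of the 10 entries, against 38.7% of all entries. The median difference over the 10 entries was 1.17, and it ranged from 0.90 without vehicle replicate 2 to 1.67 without venetoclax replicate 1. An exact permutation test of a single entry, two-sided, cannot go below p = 0.333 with 2 samples against 2.

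**Figure D1:**
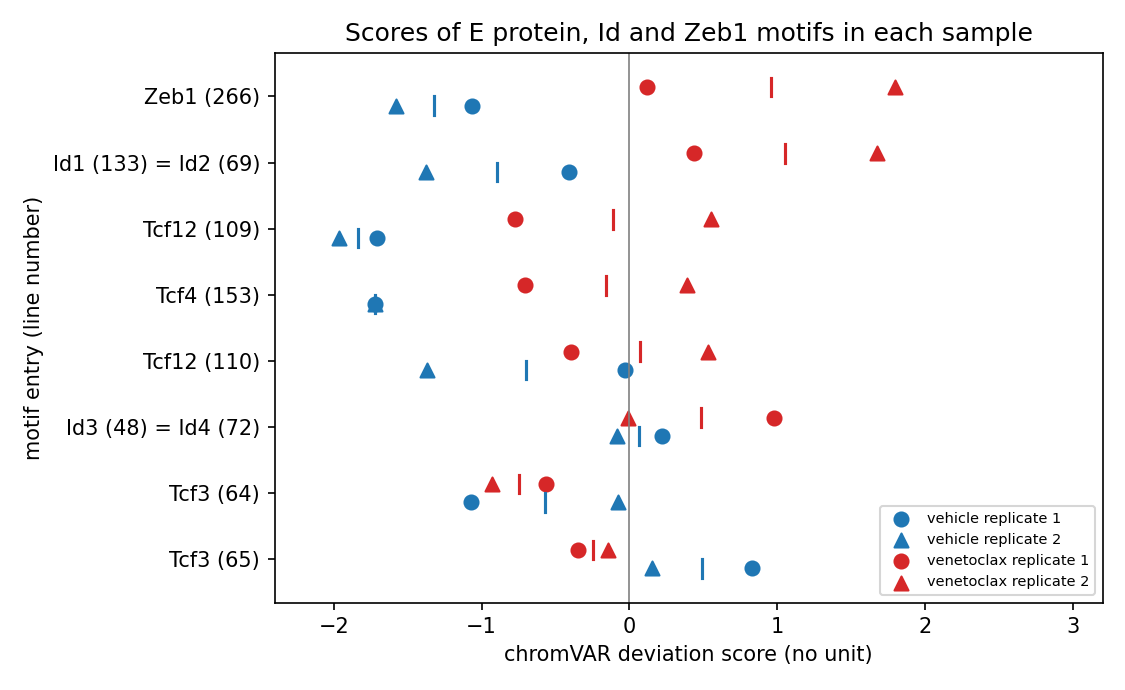
Score of each distinct motif (vertical axis, entry with its line number) in each sample (horizontal axis, chromVAR deviation score without unit), with vehicle samples in blue, venetoclax samples in red, replicates 1 as circles, replicates 2 as triangles and vertical ticks at the group means. For Zeb1 both vehicle samples lie below -1 and both venetoclax samples above 0, while for Tcf3 (line 64) the groups overlap.

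The 5 E protein entries had differences of both signs. Tcf12, known as HEB, is a partner of the Tcf3 products in thymocytes. The Tcf12 (line 109) motif scored -1.71 and -1.97 in vehicle replicates 1 and 2 and -0.77 and 0.55 in venetoclax replicates 1 and 2. Both vehicle samples were below both venetoclax samples, and the venetoclax samples lay 1.32 apart against 0.26 for vehicle. The mean was -1.84 ± 0.19 over the vehicle pair and -0.11 ± 0.93 over the venetoclax pair (± SD, n = 2 each). The difference was 1.72 (SE 0.71, 95% interval 0.24 to 3.21, limma adjusted p = 0.219). With vehicle its deviation scores were among the lowest of the table. In vehicle replicate 1 only 3.71% of entries scored lower, and in vehicle replicate 2 only 1.19% did. In venetoclax replicate 1 the share of entries below it was 18.4%, and in venetoclax replicate 2 it was 81.4%. Without venetoclax replicate 2 the difference was 1.06, and without venetoclax replicate 1 it was 2.38.

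Tcf4, called E2-2, is the E protein that specifies plasmacytoid dendritic cells. Its single motif scored -1.72 in each of the vehicle samples and -0.71 and 0.39 in venetoclax replicates 1 and 2. Both venetoclax samples were higher than both vehicle samples, and the distance between the venetoclax samples was 1.09. The mean was -1.72 ± 0.0014 over the vehicle pair and -0.16 ± 0.77 over the venetoclax pair (± SD, n = 2 each). The difference was 1.56 (SE 0.70, 95% interval 0.10 to 3.02, limma adjusted p = 0.261). The SE is set mainly by the spread shared over all entries, which is much wider than the near-identical vehicle pair. The difference was 1.02 without venetoclax replicate 2 and 2.11 without venetoclax replicate 1. Tcf4 and Tcf12 (line 109) followed each other closely. In the same sample the Tcf4 score differed from that of Tcf12 (line 109) by no more than 0.24, which was the gap in vehicle replicate 2. The Euclidean distance between these entries over the 4 samples was 0.30, and each was the nearest entry to the other in the whole table. The median distance to the other entries was 3.09 for Tcf4 and 3.26 for Tcf12 (line 109).

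The second Tcf12 motif (line 110) had another pattern. It scored -0.032 and -1.37 in vehicle replicates 1 and 2 and -0.40 and 0.53 in venetoclax replicates 1 and 2. Venetoclax replicate 1 lay between the vehicle samples, so the groups overlapped. The difference was 0.77 (SE 0.73, 95% interval -0.74 to 2.28, limma adjusted p = 0.626). It was 0.10 without vehicle replicate 2 and 1.44 without vehicle replicate 1. The Tcf12 entries lay 1.82 apart over the 4 samples. In vehicle replicate 1 the line 109 motif scored 1.67 below the line 110 motif, and in venetoclax replicate 2 it scored 0.017 above it. Whether the 2 Tcf12 differences differ from each other was not tested.

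Tcf3 encodes E12 and E47, the E proteins first described in lymphocytes, which are needed for B cell commitment and T cell development. Tcf3 (line 65) scored 0.83 and 0.15 in vehicle replicates 1 and 2 and -0.34 and -0.15 in venetoclax replicates 1 and 2. Both venetoclax samples were lower than both vehicle samples, which was the case for 31.1% of all entries. The difference was -0.73 (SE 0.69, 95% interval -2.17 to 0.70, limma adjusted p = 0.623). Leaving out single samples gave -1.07 to -0.40, nearest to 0 without vehicle replicate 1, and it was -0.47 after centring. Tcf3 (line 64) scored -1.07 and -0.075 in vehicle replicates 1 and 2 and -0.56 and -0.93 in venetoclax replicates 1 and 2. Both venetoclax samples lay between the vehicle samples. Its difference of -0.17 (SE 0.70, 95% interval -1.63 to 1.29, limma adjusted p = 0.904) had the opposite sign after centring (0.089), after quantile normalization (0.044), without vehicle replicate 2 (0.33) and without venetoclax replicate 2 (0.011).

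The order of the E protein motifs within a sample also differed between samples, which is given as a description without a test. Tcf3 (line 65) scored 2.53 and 2.12 above Tcf12 (line 109) in vehicle replicates 1 and 2. The gap was 0.43 in venetoclax replicate 1 and -0.70 in venetoclax replicate 2, so the order was reversed only in the latter sample. Against Tcf4 the gap of Tcf3 (line 65) was 2.55 and 1.87 with vehicle and 0.36 and -0.53 with venetoclax. Among the E protein entries these pairs had the largest changes, venetoclax minus vehicle, at -2.46 and -2.30. They are not separate results, since Tcf4 and Tcf12 (line 109) followed each other closely. Other pairs changed less, such as Tcf3 (line 64) minus Tcf12 (line 110) by -0.94 and Tcf3 (line 64) minus Tcf3 (line 65) by 0.56.

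**Figure D2:**
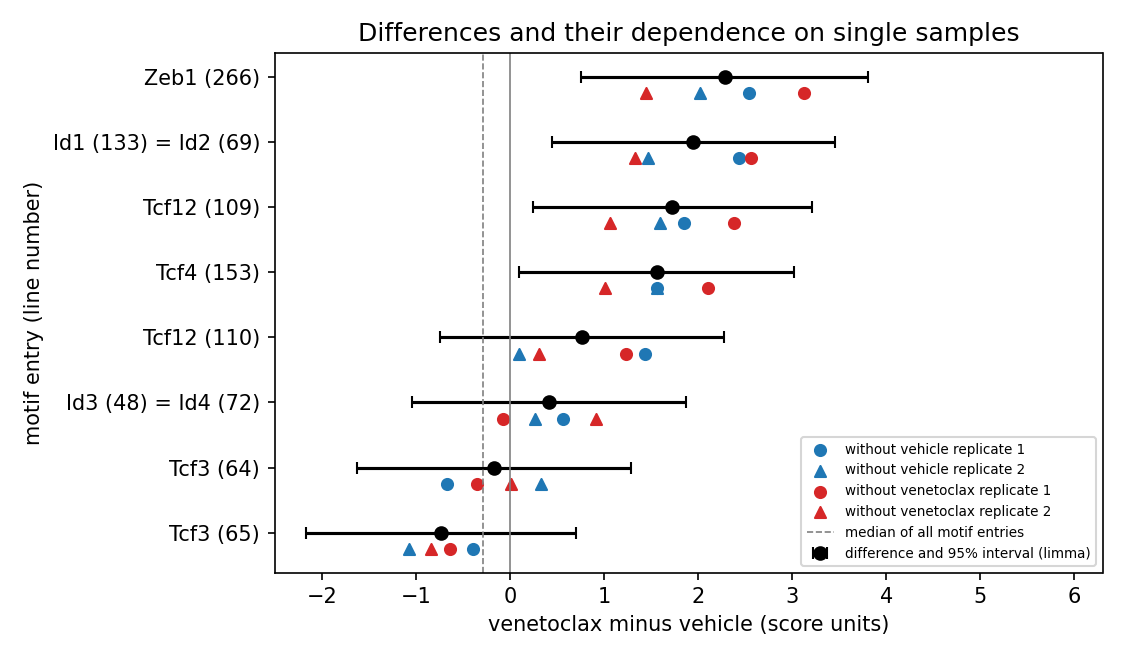
Difference of each distinct motif, venetoclax minus vehicle in score units (horizontal axis), with its 95% limma interval in black and, beneath it, the difference without each sample in turn (blue for a vehicle sample left out, red for a venetoclax sample, circles for replicate 1 and triangles for replicate 2). The intervals of Zeb1, Id1 and Id2, Tcf12 (line 109) and Tcf4 lie above 0 before adjustment, and each of these differences is nearest to 0 without venetoclax replicate 2.

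Among the Id proteins, Id2 is induced in effector and memory T cells. The Id2 motif, which is marked D, and the Id1 motif, which is marked I, had the same scores and count as 1 measurement. Id proteins lack the basic region that contacts DNA, so the mark D is not taken as binding by Id2 itself. The Id1 and Id2 motif scored -0.41 and -1.38 in vehicle replicates 1 and 2 and 0.44 and 1.67 in venetoclax replicates 1 and 2. All vehicle scores were negative and all venetoclax scores positive. The mean was -0.90 ± 0.68 over the vehicle pair and 1.05 ± 0.87 over the venetoclax pair (± SD, n = 2 each). The difference was 1.95 (SE 0.72, 95% interval 0.45 to 3.46, limma adjusted p = 0.174), and it was exceeded or equalled by few entries, as 97.7% of all entries had a lower difference. In venetoclax replicate 2 the Id2 motif scored above 98.2% of entries, and in vehicle replicate 2 it scored above 4.53%. The difference went from 1.33 without venetoclax replicate 2 to 2.57 without venetoclax replicate 1.

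Id3, which is high in naive T cells and resting Tregs, shared its scores with Id4, an Id protein best known from the nervous system. Both motifs are marked I. They scored 0.22 and -0.085 in vehicle replicates 1 and 2 and 0.98 and -0.011 in venetoclax replicates 1 and 2. Only venetoclax replicate 1 stood above the other 3 samples. The difference was 0.42 (SE 0.70, 95% interval -1.04 to 1.87, limma adjusted p = 0.794), and it was -0.077 without venetoclax replicate 1. The Id1 and Id2 motif scored lower than the Id3 and Id4 motif in vehicle replicate 1 (by a gap of -0.63), vehicle replicate 2 (-1.29) and venetoclax replicate 1 (-0.54), and 1.68 higher in venetoclax replicate 2.

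Zeb1 had the largest positive difference of the 10 entries. Its motif, marked I, scored -1.07 and -1.58 in vehicle replicates 1 and 2 and 0.12 and 1.80 in venetoclax replicates 1 and 2. Both vehicle scores were negative and both venetoclax scores positive, with a distance of 1.68 between the venetoclax samples. The mean was -1.33 ± 0.36 over the vehicle pair and 0.96 ± 1.19 over the venetoclax pair (± SD, n = 2 each). The difference was 2.28 (SE 0.73, 95% interval 0.76 to 3.81, unadjusted p = 0.00528, limma adjusted p = 0.151), the 14th highest of the 1346 entries. In venetoclax replicate 2 the Zeb1 motif scored above 99.5% of entries, in venetoclax replicate 1 above 51.0%, in vehicle replicate 1 above 10.6% and in vehicle replicate 2 above 2.75%. Without venetoclax replicate 2 the difference was 1.44, and without venetoclax replicate 1 it was 3.12. Within the set, Zeb1 was closest to the Id1 and Id2 motif, at a distance of 0.77 over the 4 samples, and lay 1.70 from Tcf12 (line 109) and 1.77 from Tcf4.

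The call of several entries depended on the model and on 1 sample. With a variance that depends on the mean and is robust to outliers, limma called Zeb1 (adjusted p = 0.0108) and the Id1 and Id2 motif (adjusted p = 0.0345), so 3 of the 10 entries were called higher, against 1.93% of all entries. With the ordinary linear model the adjusted p was 0.623 for Zeb1, the Id1 and Id2 motif, Tcf12 line 109 and Tcf4. Without venetoclax replicate 1, limma called Zeb1 (adjusted p = 0.000539), the Id1 and Id2 motif (adjusted p = 0.00453), Tcf12 line 109 (adjusted p = 0.00896) and Tcf4 (adjusted p = 0.0212). These are 5 of the 10 entries, against 7.73% of all entries called higher. That fit assumes that venetoclax replicate 2, the lone sample of its group, varied like the vehicle samples. Leaving out another sample gave Zeb1 an adjusted p of 0.556 (venetoclax replicate 2), 0.383 (vehicle replicate 1) or 0.996 (vehicle replicate 2).

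**Figure D3:**
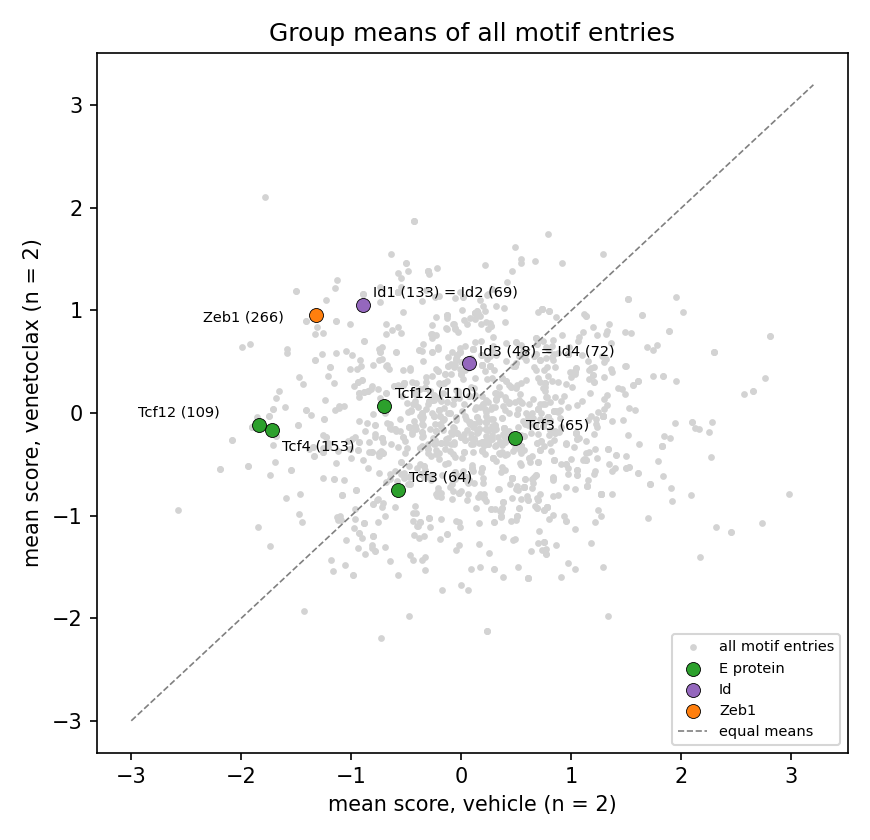
Mean score with vehicle (horizontal axis) against mean score with venetoclax (vertical axis) for all 1346 entries in grey, with E protein motifs in green, Id motifs in purple and Zeb1 in orange, n = 2 samples a group. Tcf12 (line 109) and Tcf4 lie at the low end of the vehicle axis. All member motifs except the Tcf3 entries lie above the dashed line of equal means.

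Outside the set, the entries most like each member were found by Euclidean distance over the 4 samples, which describes likeness of scores over few samples that all entries share. Nearest to Zeb1 were Srf, a MADS-box factor, at a distance of 0.24, and Dmrta1 and Dmrta2 at 0.29. Nearest to the Id1 and Id2 motif were the homeobox factors Isl2, Isl1 and Msx1, all at 0.18. For Tcf12 (line 109) they were the T-box factor Tbx2 at 0.36 and the bHLH-PAS factors Ahr and Ahrr at 0.46. For Tcf4 they were Smarcc2 and Smarcc1 at 0.40, subunits of the SWI/SNF remodelling complex, and Tbx2 at 0.45. For the Id3 and Id4 motif they were the bHLH-PAS factors Npas1, Sim1 and Npas3 at 0.32. Tcf3 (line 65) was nearest to Sp3 and Meox1 at 0.20 and to Tead3 at 0.27. None of these named neighbours is an E protein partner of the list that follows.

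The tissue-restricted bHLH factors that pair with E proteins had differences of both signs. Of the 34 listed, 33 had 56 entries with 41 distinct sets of scores. The median difference was 0.034, with 29 entries positive and 27 negative, against a median of -0.29 over all entries. At an unadjusted p under 0.05, 9 of the 56 were higher and 6 lower, against 6.39% and 11.9% of all entries, and 0 passed an adjusted p of 0.05 in limma. The groups did not overlap for 14 entries that were higher and 11 that were lower, against 17.2% and 31.1% of all entries. The partner with the highest difference was Myf5 (line 111), a muscle factor, at 2.37 (SE 0.68), while its other motifs ran from 1.96 (line 110) to -0.87 (line 112). Myf6 (line 118) followed at 2.17 (SE 0.77, limma adjusted p = 0.174), with groups that did not overlap. Leaving out single samples gave it 1.33 to 3.01, and the Myf6 motif of line 117 differed by 0.0071. The lowest was Neurod1 (line 293), a neuronal and endocrine factor, at -2.41 (SE 0.69), although other Neurod1 motifs reached 1.68. Tal1 and Lyl1, partners of E proteins in blood progenitors and T cell leukaemia, shared motifs that ran both ways, from 1.64 (Tal1 line 229) to -1.61 (Tal1 line 236). The next lowest entry after Neurod1 (line 293) was Msc, which represses the Th2 programme in induced Tregs. For Msc the vehicle samples scored 1.02 and 0.84 and the venetoclax samples -0.69 and -1.33. Its difference was -1.94 (SE 0.69, limma adjusted p = 0.174), and it went from -2.26 to -1.62 with single samples left out.

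The other E2-box zinc fingers had differences between -1.24 and 0.093, below that of Zeb1. Of 6 listed genes, 5 had an entry each, and the groups overlapped in all 5. Snai1 and Snai3, repressors of the Snail family with identical scores, differed by 0.093 (SE 0.76), Snai2 by -0.35 (SE 0.69), Scrt2 by -0.64 (SE 0.71) and Scrt1 by -1.24 (SE 0.75). Leaving out single samples gave -0.76 to 0.94 for Snai1 and Snai3 and -2.20 to -0.28 for Scrt1. The list median was -0.35, near the -0.29 of all entries, and it was 0.033 without venetoclax replicate 2. Whether these motifs differ from Zeb1 was not tested.

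Factors of B, myeloid and erythroid cells were listed as the nearest that motif scores give to a check for other cells in the sort. The 7 genes had 8 entries with a median difference of 0.45, of which 5 were positive and 3 negative. The median was -0.12 without vehicle replicate 1, 0.091 without venetoclax replicate 2 and 0.89 without vehicle replicate 2. The myeloid factors Cebpb and Cebpa differed by 1.53 (SE 0.75) and 0.92 (SE 0.72). The Spi1 entries, named for a factor of myeloid and B cells, differed by -2.15 (line 997, SE 0.68) and -0.086 (line 1000, SE 0.68), and the related Spib by 0.48 (SE 0.71). Gata1 of erythroid cells differed by 0.45 (SE 0.69), Ebf1 of B cells by 0.45 (SE 0.77) and Pax5 of B cells by -0.057 (SE 0.68). Leaving out single samples gave -0.53 to 1.43 for Ebf1, 0.78 to 2.27 for Cebpb and -2.30 to -1.99 for Spi1 (line 997). Their part in the E protein, Id and Zeb1 differences was not tested. In bulk samples a change in the mix of cells and a change within cells cannot be told apart.

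**Figure D4:**
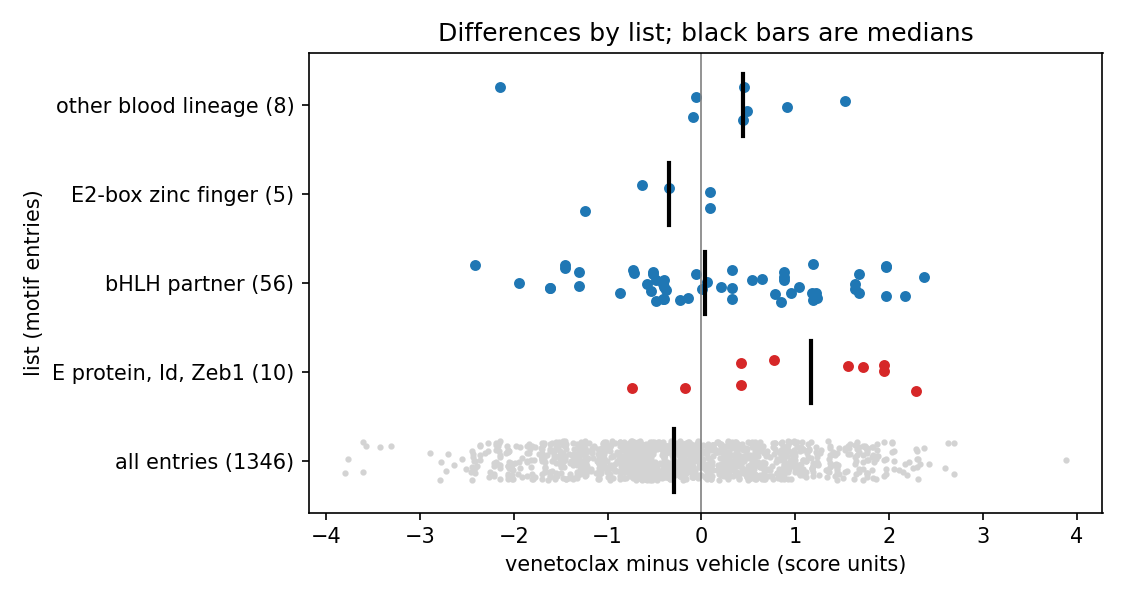
Difference of each entry, venetoclax minus vehicle in score units (horizontal axis), for all entries and for the 4 lists (vertical axis, number of entries in brackets, points spread vertically at random), with a black bar at each median. The E protein, Id and Zeb1 entries have a median of 1.17, the bHLH partners 0.034, the other E2-box zinc fingers -0.35, the factors of other blood lineages 0.45 and all entries -0.29.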

How the data were processed

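ATAC-seq was made from 2 vehicle and 2 venetoclax samples of spleen Tregs. The authors deposited chromVAR deviation scores per motif entry and sample, with a mean per group, the difference and its rank. The submitters' processing notes list mm10 as the build and Bowtie2, Picard and MACS2 as tools, with no version. For the peak set, the motif collection and the samples that chromVAR scored jointly, the choice is not given in the sources used here. Scores were treated as z-scores. Of 12 sample columns, 8 match no labelled sample and were not used.

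Members were matched by symbol, with older symbols from RefSeq (GRCm38.p6, names only). All 1346 entries were fitted with limma 3.58.1 in R 4.3.3, two-sided, without filter or scaling, on 21.0 degrees of freedom of which 2 came from an entry's own samples. Differences recomputed here equalled the authors' deposited differences within 1e-09. The step was tested on simulated data.

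All 10 member entries are named, with the 3 nearest other factors per gene and, for the lists, the entries of largest difference in each direction, up to 4 a list. The Myf5, Neurod1, Tal1 and Lyl1 ranges, the lower Myf6 entry, the entries of other blood lineages beyond 4 and the fifth zinc finger were chosen after their values were seen. The pairs of E protein motifs compared within a sample were not set beforehand. The members and lists were chosen with earlier results of these data known. Alternatives were the replicate block, leaving out single samples, centring, scaling to equal SD, quantile normalization, 1 entry per distinct set of scores, other variance models, a minimum absolute score of 1, a threshold of 0.1, entries marked D or I alone and 1 value per gene. Applying them to the 3 other lists was added after seeing the data. No sequence is printed, since the table holds no motif matrices.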

Additional observations from a re-analysis of the deposited data

How the results depend on the processing

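Over 12 alternatives, 101 of 115 values of single member entries kept their direction and their side of the threshold, 8 newly passed it and 6 changed sign. These counts take Id1 and Id2, and likewise Id3 and Id4, as separate entries although their scores are identical. The exception is the setting with 1 entry per distinct set of scores. A sign change was possible only where the scores or the samples were changed. The replicate block, the variance models, 1 entry per distinct set of scores and the minimum absolute score leave each difference as it is. Sign changes were limited to Tcf3 (line 64), at 0.089 after centring, 0.044 after quantile normalization, 0.33 without vehicle replicate 2 and 0.011 without venetoclax replicate 2, and to Id3 and Id4, at -0.077 without venetoclax replicate 1. With single samples left out Tcf3 (line 64) ranged from -0.67 to 0.33 and Id3 and Id4 from -0.077 to 0.91. The count of entries past the adjusted p, which was 0 in limma with 246 at an unadjusted p under 0.05, was 74 with the mean-dependent and robust variance, 8 among entries with an absolute score of at least 1 in a sample and 6 at a threshold of 0.1. With a sample left out it ranged from 0 to 337, the latter without venetoclax replicate 1. An absolute score of 1 was reached by 7 of the 10 member entries. The member median was between 0.90 and 1.72 under every alternative run. The block and the variance models cannot change it. The 1.72 came from the minimum absolute score, which is set on these same scores. It drops Id3, Id4 and Tcf3 (line 65), whose differences lie below the member median. Apart from that filter the highest median was 1.67, without venetoclax replicate 1. The bHLH partner median was 0.30 after centring, 0.29 after quantile normalization, 0.88 with the minimum absolute score and -0.00075 to 0.064 with a sample left out. With a sample left out the E2-box zinc finger median ranged from -0.76 to 0.033 and the other blood lineage median from -0.12 to 0.89. The cause of these shifts was not tested. With the replicate number as a block limma called 0 entries. The member median stayed at 1.17, since in this balanced layout a block cannot change a difference. In that fit 1 member entry, Zeb1, had an unadjusted p under 0.05, with an adjusted p of 0.546. Of all entries 3.34% were higher and 4.09% lower at that unadjusted p. The labels do not tie equal numbers to shared animals or days, so the block was not used in the main fit. Deviations of same-numbered samples from their group means correlated at -0.27 over entries. With 2 samples a group, crossed numbers give the same value with the opposite sign, so it cannot decide whether samples are paired. Depth is unknown and sets no interval here.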
